A study of Mus musculus with 4 samples.

Results

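The 10 serotonin receptor genes considered here are Htr1a, Htr1b, Htr1d, Htr1f, Htr2a, Htr2c, Htr3a, Htr4, Htr5a and Htr7. Their members on the array were all probe sets annotated to 1 of these symbols and to no other gene, which gave 18 probe sets of 9 genes among 34945 probe sets with 1 symbol. No such probe set was found for Htr2a, and its level was not measured. Each probe set was kept separate, because probe sets of the same gene read different stretches of its transcripts. Levels were log2 intensities from Affymetrix 3' arrays hybridised with labelled RNA from punches of prelimbic cortex, a medial prefrontal area, taken from males on postnatal day 90. The 2 arrays of the fluoxetine group came from mice whose prenatal life included exposure to fluoxetine, which blocks the reuptake of serotonin. The 2 arrays of the untreated group came from control mice, and the series describes the arrays of a group as biological duplicates. The labels give no strain, dose or window of exposure, and leave unsaid whether RNA of single or pooled mice was hybridised.

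Serotonin receptors fall into classes by the way they signal. The receptors of the 5-HT1 class and 5-HT5A couple to Gi/o proteins and damp neurons and transmitter release, the 5-HT2 receptors couple to Gq and raise calcium, and 5-HT4 and 5-HT7 couple to Gs and raise cyclic AMP. The 5-HT3 receptor is the exception, a cation channel opened directly by serotonin. In the prefrontal cortex, fibres from the raphe nuclei release serotonin onto pyramidal cells and interneurons that carry different sets of these receptors.

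Among the 18 receptor probe sets, Htr1f stood highest relative to untreated mice, with 1 of its probe sets 1.65-fold higher in fluoxetine mice and the other in the same direction. A probe set of Htr1d stood at 0.778 times the untreated level. The Htr2c probe sets averaged lower in fluoxetine mice, with 1 untreated array far above the other 3 arrays. The other receptors differed by at most 0.30 on the log2 scale, apart from the dimmest Htr1d probe set, whose arrays spread over 1.73. No receptor probe set passed the correction for all probe sets tested.

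Promoters are shown for Htr1f and Htr2c, the receptors on which most of the results turn. They come from RefSeq (build GRCm38.p6), span 300 bases from upstream of an annotated transcript start to just past it, and were found in that table for 8 of the 10 genes. Capitals mark matches to a searched motif on either strand.
Htr1f, chr16:65105735-65106034, minus strand: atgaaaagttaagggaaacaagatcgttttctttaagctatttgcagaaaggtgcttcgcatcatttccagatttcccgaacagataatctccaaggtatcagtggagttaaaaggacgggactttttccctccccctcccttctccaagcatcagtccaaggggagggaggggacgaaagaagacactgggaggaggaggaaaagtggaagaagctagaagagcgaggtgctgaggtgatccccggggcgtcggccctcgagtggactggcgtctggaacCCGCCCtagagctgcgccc
Htr2c, chrX:146962263-146962562, plus strand: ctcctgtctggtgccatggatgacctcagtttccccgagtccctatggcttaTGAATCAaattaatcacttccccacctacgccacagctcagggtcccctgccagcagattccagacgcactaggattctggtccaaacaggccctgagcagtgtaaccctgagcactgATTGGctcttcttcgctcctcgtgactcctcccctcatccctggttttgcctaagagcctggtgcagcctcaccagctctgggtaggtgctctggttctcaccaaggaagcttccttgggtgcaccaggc
The motifs searched were the TATA box TATAAA, the cyclic AMP response half-site TGACG, the AP-1 site TGANTCA, the GC box GGGCGG and the CCAAT box CCAAT. The Htr1f window held 1 GC box, read on the opposite strand, and the Htr2c window held 1 AP-1 letter match and 1 CCAAT box, with no overlap between matches. Over all 32851 promoters of the table, 35.7% held the GC box letters, 7.81% the AP-1 letters and 37.4% the CCAAT letters. The arrays measured transcripts and give no reading of factors bound at these windows.

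The tissue and the arrays were checked first. All 9 measured markers of cortical excitatory neurons lay above a log2 level of 7.71, below which lay 90% of 30 probe sets for genes of other organs, such as milk, sperm and pancreas proteins. All 5 measured markers of serotonergic neurons lay below it, among them Tph2 at 3.68 and 3.94 on the fluoxetine arrays and 3.34 and 3.67 on the untreated arrays. The arrays correlated at 0.9957 to 0.9972 over all probe sets other than controls, with 0.9972 within the fluoxetine group and 0.9963 within the untreated group. Pairs from different groups correlated at 0.9957 to 0.997, so some were more alike than the untreated pair. Poly-A control transcripts, added before labelling, were higher in the fluoxetine group in 24 of 24 probe sets, by a median of 0.24. Untreated replicate 2 stood apart in markers of striatum, a neighbouring region: all 13 measured markers were highest on that array. Their summed linear intensity was 11590 and 13010 on the fluoxetine arrays, against 11910 and 20660 on the untreated arrays.

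**Figure D1:**
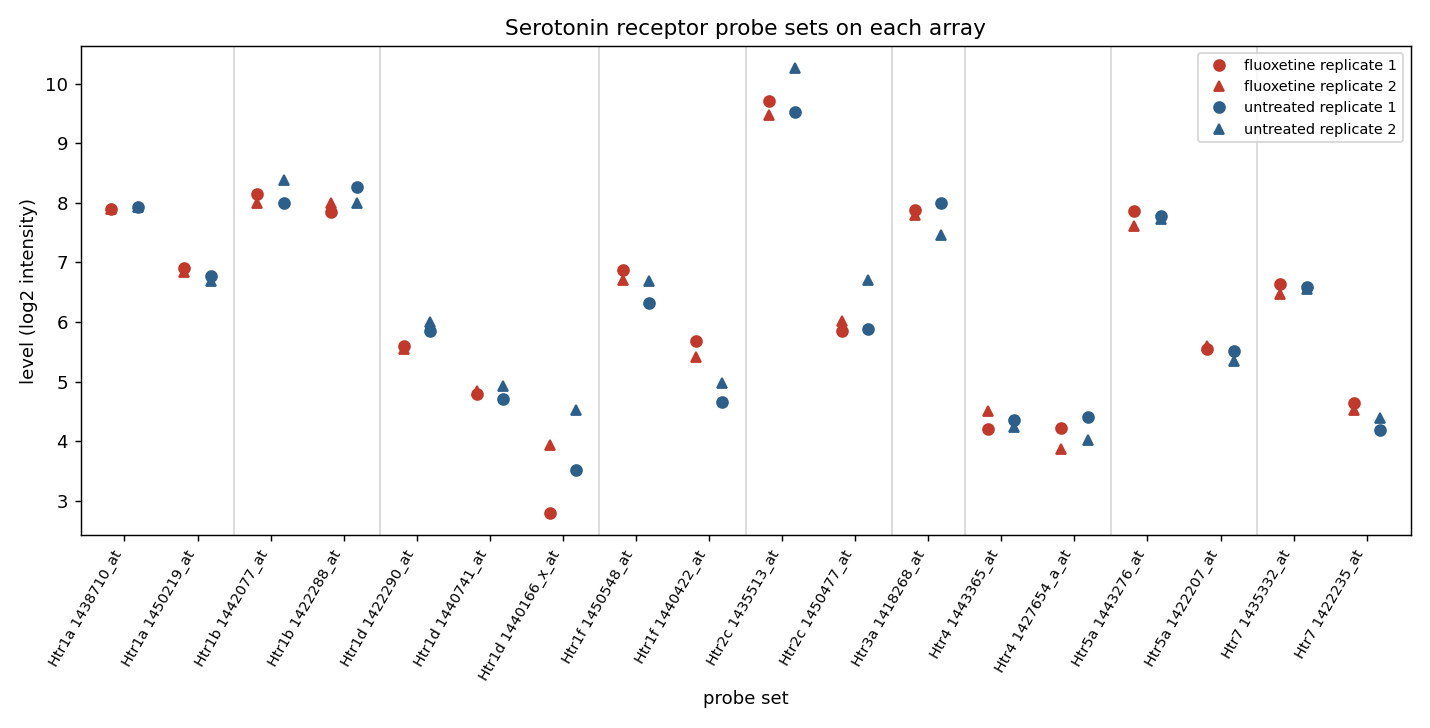
Level of each of the 18 serotonin receptor probe sets (horizontal axis) on the 4 arrays, in log2 intensity (vertical axis), with fluoxetine arrays in red on the left and untreated arrays in blue on the right of each position. Untreated replicate 2 (blue triangle) reads 10.26 for Htr2c 1435513_at, above 9.46 to 9.70 on the other 3 arrays, and the Htr1f 1440422_at arrays separate by group.

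Each difference below is the mean log2 level with fluoxetine minus the mean log2 level without it, tested with limma across all 34945 probe sets, with Benjamini-Hochberg adjustment over all of them. With 2 arrays a group, an exact permutation test of a single probe set cannot give a two-sided p below 0.333, and the limma p rests mostly on the variance of other probe sets of like intensity. No receptor probe set had an adjusted p below 0.05 in limma, where 0.00286% of all probe sets did (1 probe set, of Homer1), and the lowest receptor value was 0.373. At an unadjusted p below 0.05, a single receptor probe set (1) was higher with fluoxetine, where 6.40% of all probe sets were, and 1 was lower, where 3.04% were. The other 16 did not pass. Both fluoxetine arrays lay above both untreated arrays in 5 of the 18 and below them in 2, against 19.9% and 20.0% of all probe sets. The median difference of the 18 was −0.016 (0.021 after subtracting array medians), beside −0.0065 (0.0304 after subtracting array medians) for all probe sets tested.

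Level matters for reading these counts. Of the 18 receptor probe sets, 12 lay below the median level of all tested probe sets (7.12), and the same 12 lay below the 7.71 that bounded most genes of other organs. Among these 12, both fluoxetine arrays were above both untreated arrays in 5 and below them in 1. Over all probe sets below the median level, 12.3% had the first arrangement and 25.0% the second, so dim probe sets as a whole leaned lower on the fluoxetine arrays. The lower quartile over all probe sets other than controls was 4.41 and 4.48 on the fluoxetine arrays, against 4.57 and 4.47 on the untreated arrays. It was thus raised on untreated replicate 1, and the part of array scaling in this lean was not tested. The receptors' shares were not tested against these values. The 6 probe sets above both levels belonged to Htr1a, Htr1b (both of its probe sets), Htr2c, Htr3a and Htr5a, and none of them had an unadjusted p below 0.05. Of these 6, only Htr2c 1435513_at (9.74) also lay above the highest probe set for genes of other organs (9.37).

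**Figure D2:**
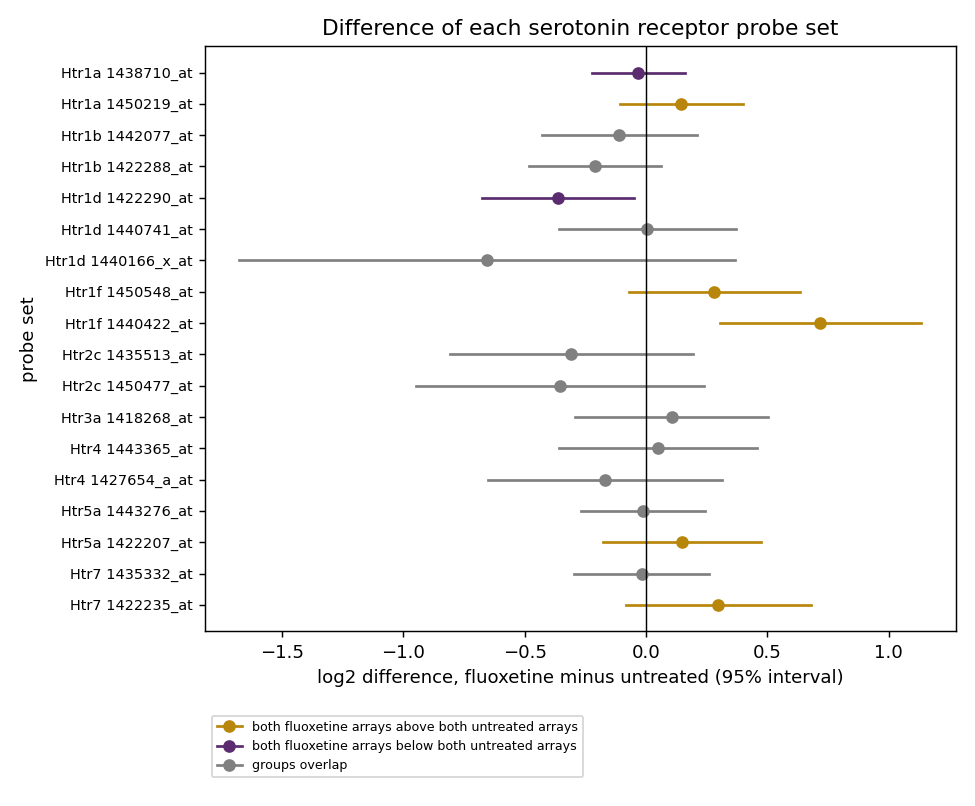
Log2 difference, fluoxetine minus untreated, of each receptor probe set (points) with its 95% interval from limma (lines), coloured by whether the groups overlap. The intervals of Htr1f 1440422_at (0.30 to 1.14) and Htr1d 1422290_at (−0.68 to −0.05) leave out 0, and those of the other 16 include it.

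Htr1f encodes the 5-HT1F receptor, a Gi/o-coupled receptor that is a drug target for migraine in humans. Its probe set 1440422_at read 5.68 and 5.41 on the fluoxetine arrays, against 4.66 and 4.98 on the untreated arrays. Both fluoxetine arrays were therefore above both untreated arrays, with a gap of 0.42 between the nearest. The difference was 0.72 (SE 0.18, limma, unadjusted p = 0.00457, adjusted p = 0.373). It was at least 0.56 with any 1 array left out, and its unadjusted p stayed below 0.05 in each of those 4 fits, with the highest at 0.0423 without fluoxetine replicate 1. The probe set 1450548_at read 6.87 and 6.70 on the fluoxetine arrays, against 6.32 and 6.68 on the untreated arrays. These groups also did not overlap, but the nearest arrays lay only 0.02 apart. Its difference was 0.28 (SE 0.15, unadjusted p = 0.101), or 0.10 without untreated replicate 1 and 0.46 without untreated replicate 2. The levels of both probe sets fell within the range of genes of other organs, and of the 30 probe sets for such genes none differed 1.5-fold (range −0.51 to 0.27). In these 30, the fluoxetine arrays were both above the untreated arrays in 2 and both below them in 11. Over all probe sets below the median level these shares were 12.3% and 25.0%. The other receptor probe set to reach 1.5-fold was the dim and widely spread Htr1d 1440166_x_at (−0.65). Over all probe sets below the median level, 0.681% were at least 1.5-fold higher. Of 9 cortical excitatory neuron markers, 3 were also higher at an unadjusted p below 0.05, namely Fezf2 (0.33), Neurod6 (0.24) and Cux2 (0.17), where 9.99% of probe sets above the median level were higher in a fit of these alone. Camk2a (−0.03) and Foxp2 (−0.16) went the other way, the list's median difference was 0.083, and its summed intensity was 24520 and 23660 with fluoxetine against 23830 and 23350 without. At the same threshold, 2 of 6 astrocyte and 2 of 6 vascular or meningeal markers were higher, where 6.40% of all probe sets were. Of 6 microglial and 7 oligodendrocyte markers, 0 were. The part of any of these markers in the Htr1f difference was not tested, and in tissue punches more cells of a type cannot be told apart from more RNA per cell.

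Htr1d encodes 5-HT1D, a close relative of 5-HT1B that sits on axon terminals. Its probe set 1422290_at read 5.596 and 5.54 on the fluoxetine arrays, against 5.86 and 6.01 on the untreated arrays. The groups did not overlap, and the difference was −0.36 (SE 0.13, limma, unadjusted p = 0.0290, adjusted p = 0.474). It kept its sign with every array left out (−0.44 to −0.29), but the unadjusted p was 0.0608 after another quantile normalization and 0.0821 to 0.121 in 3 of the 4 fits with an array left out. The probe set 1440741_at showed no such separation, with 4.80 and 4.84 on the fluoxetine arrays and 4.70 and 4.93 on the untreated arrays. Its difference was 0.0048 (95% interval −0.36 to 0.37). The third, 1440166_x_at, carries the suffix of probe sets that may cross-hybridise. It read 2.79 and 3.94 on the fluoxetine arrays, against 3.52 and 4.52 on the untreated arrays. Arrays of the same group thus differed by 1.15 and 1.0025, more than the difference of −0.65 (SE 0.43) between the groups. The Htr1d probe sets disagreed, and a difference seen in 1 of 3 dim probe sets describes that probe set.

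Htr1a encodes 5-HT1A, the inhibitory receptor that raphe neurons use as an autoreceptor and cortical neurons carry on cell bodies and initial segments. Its probe set 1438710_at read 7.90 on both fluoxetine arrays and 7.93 on both untreated arrays. The groups were separate by only 0.03, and the difference of −0.03 (95% interval −0.22 to 0.16) became 0.0058 after subtracting array medians. The probe set 1450219_at read 6.91 and 6.84 on the fluoxetine arrays, against 6.78 and 6.68 on the untreated arrays. Here the fluoxetine arrays were the higher ones, by 0.15 (95% interval −0.11 to 0.40). The 2 probe sets thus had opposite signs, and both intervals included 0.

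Htr1b encodes 5-HT1B, which limits release from serotonergic and other axon terminals. The probe set 1422288_at read 7.84 and 7.999 on the fluoxetine arrays, against 8.27 and 7.99 on the untreated arrays, where untreated replicate 1 alone was high. The probe set 1442077_at read 8.16 and 8.003 on the fluoxetine arrays, against 7.99 and 8.39 on the untreated arrays, where untreated replicate 2 alone was high. Their differences were −0.21 (SE 0.12) and −0.11 (SE 0.14), and the groups overlapped in both. Each depended on its high array. Without untreated replicate 1 the values were −0.07 and −0.31, and without untreated replicate 2 they were −0.35 and 0.09. The 2 Htr1b probe sets therefore shared a sign over all 4 arrays while different arrays gave it.

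Htr5a encodes 5-HT5A, another Gi/o-coupled receptor. Its probe set 1443276_at read 7.87 and 7.61 on the fluoxetine arrays, against 7.77 and 7.73 on the untreated arrays, which lay between them. The difference was −0.01 (95% interval −0.27 to 0.24), or 0.0235 after subtracting array medians. The probe set 1422207_at read 5.55 and 5.602 on the fluoxetine arrays, against 5.51 and 5.35 on the untreated arrays. The groups were 0.04 apart and the difference was 0.15 (95% interval −0.18 to 0.48).

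Htr2c encodes 5-HT2C, a Gq-coupled receptor whose RNA is edited by adenosine deaminases and which is known for high expression in choroid plexus and expression in striatum. Its probe set 1435513_at read 9.70 and 9.46 on the fluoxetine arrays, against 9.52 and 10.26 on the untreated arrays. Its probe set 1450477_at read 5.86 and 6.02 on the fluoxetine arrays, against 5.88 and 6.70 on the untreated arrays. In both, untreated replicate 2 was the highest array, as it was for 7 of the 18 receptor probe sets and 30.8% of all, while the other 3 spanned 9.46 to 9.70 and 5.86 to 6.02. The differences were −0.31 (SE 0.21, limma, unadjusted p = 0.190) and −0.35 (SE 0.25, unadjusted p = 0.202). Without untreated replicate 2 they were 0.06 and 0.06, and without untreated replicate 1 they were −0.68 (unadjusted p = 0.00183) and −0.77 (unadjusted p = 0.00340). Where a fit leaves 1 array in a group, that array is assumed to vary like the other group. Among the 17472 probe sets above the median level, 0.859% ranged as widely over the 4 arrays as the 0.79 of 1435513_at, where the median range was 0.17.

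**Figure D3:**
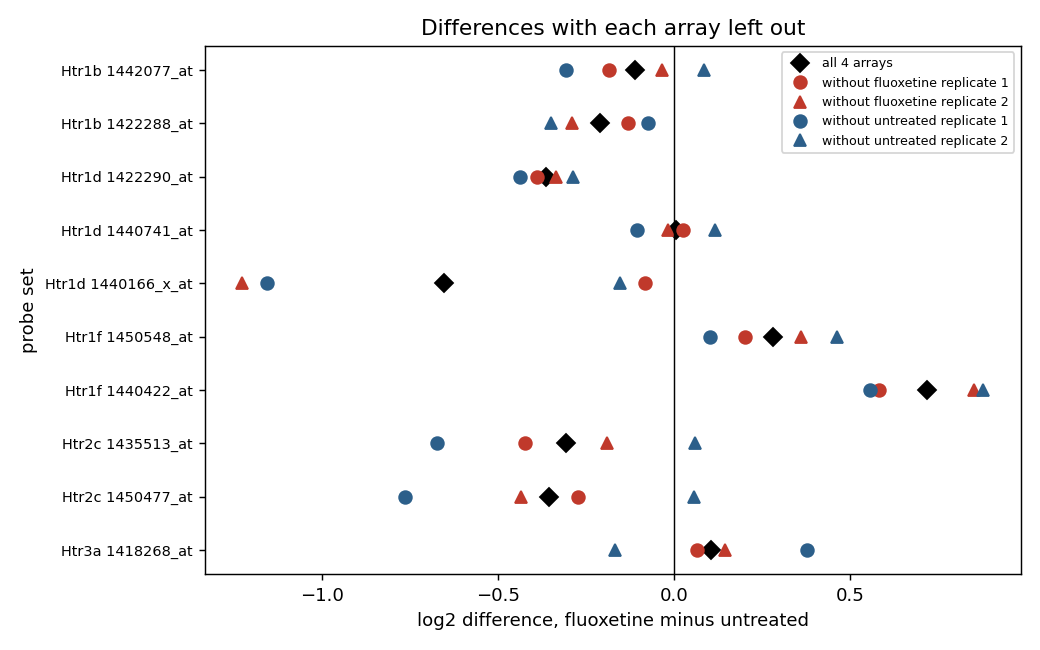
Log2 difference, fluoxetine minus untreated (horizontal axis), of the Htr1b, Htr1d, Htr1f, Htr2c and Htr3a probe sets with all 4 arrays (diamonds) and with each array left out. The Htr1f points all lie above 0, while Htr2c moves to 0.06 for both probe sets and Htr3a to −0.17 without untreated replicate 2.

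Striatal markers shared the high untreated replicate 2 with Htr2c. Over the other 3 arrays, the mean log2 level of the striatal list was lowest on fluoxetine replicate 1 (8.95). It was 9.05 on untreated replicate 1 and 9.17 on fluoxetine replicate 2. Htr2c 1450477_at had the same order (5.86, 5.88 and 6.02), while Htr2c 1435513_at was highest of these on fluoxetine replicate 1. The dopamine receptor gene Drd2 read 6.34 and 6.87 on the fluoxetine arrays, against 6.78 and 8.24 on the untreated arrays. The striatal signalling gene Rgs9 read 8.94 and 9.28 on the fluoxetine arrays, against 9.23 and 10.18 on the untreated arrays. The 3 brightest markers were also highest on untreated replicate 2, at 11.90 for Foxp1, 12.315 for Penk and 11.50 for Tac1. None of the 13 was at 0, 10 lay above 7.71, and the list's median difference was −0.37, and at an unadjusted p below 0.05 none was higher and 1 was lower. Choroid plexus markers had no shared highest array. Of 9 measured, 3 were highest on untreated replicate 2, as Htr2c was, and 3 on fluoxetine replicate 1. Ttr, the transthyretin gene that dominates that tissue, read 11.72 and 8.09 on the fluoxetine arrays, against 6.67 and 8.97 on the untreated arrays. It was thus highest on fluoxetine replicate 1, where Htr2c 1435513_at was at 9.70 and Htr2c 1450477_at at 5.86. The other 8 measured choroid plexus markers lay below 7.71. The list's summed intensity was 3777 and 700.2 on the fluoxetine arrays, against 514.4 and 933 on the untreated arrays. On fluoxetine replicate 1 most of that sum was Ttr. The part of neighbouring tissue in the Htr2c values was not tested.

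**Figure D4:**
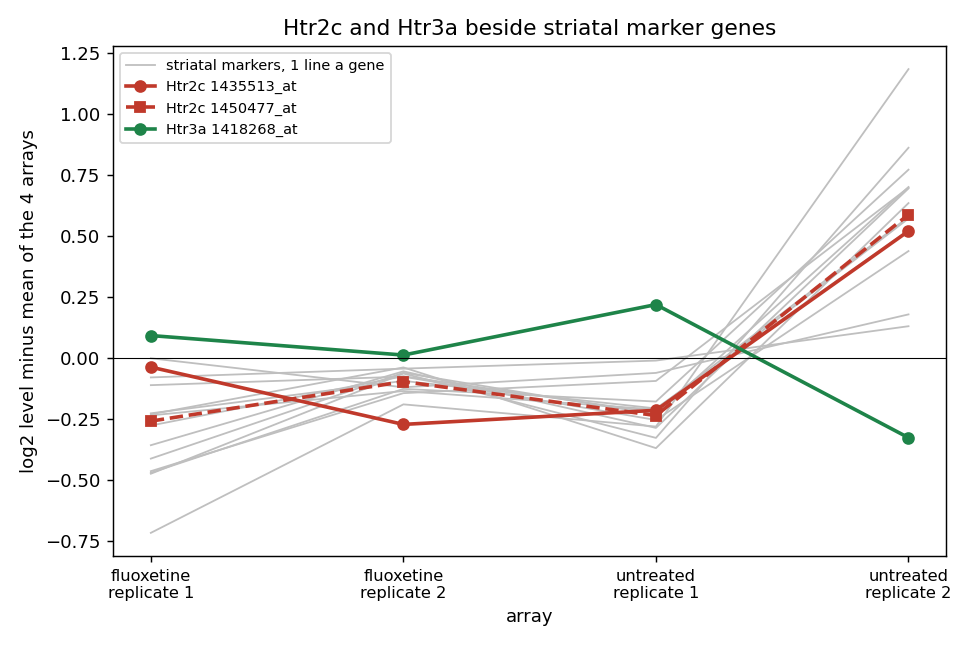
Log2 level minus the mean of the 4 arrays (vertical axis) for both Htr2c probe sets (red), the Htr3a probe set (green) and 13 striatal marker genes (grey lines) on each array (horizontal axis). The Htr2c and striatal lines are highest on untreated replicate 2, where Htr3a is lowest.

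The probe sets most like Htr2c 1435513_at were sought among the 17471 others above the median level, by Euclidean distance between levels centred over the 4 arrays. The nearest was Gpr83, a G-protein-coupled receptor gene, at a distance of 0.170. It was followed by the forkhead factor gene Foxo1 (0.175), the potassium channel gene Kcna4 (0.18), Angptl4 (0.189) and the oligodendrocyte gene Opalin (0.189). Each was highest on untreated replicate 2. Gpr83 read 8.53 and 8.49 on the fluoxetine arrays, against 8.44 and 9.06 on the untreated arrays, and Opalin read 9.86 and 9.78 against 9.89 and 10.41. Over only 4 arrays, the likeness rests on this 1 high array. Untreated replicate 2 was the highest array for 6415 of the 17472 probe sets above the median level. Microglia markers shared it in 5 of 6 genes. The brightest, Csf1r, did so narrowly, with 11.82 and 11.89 on the fluoxetine arrays against 11.88 and 11.98 on the untreated arrays. Myelin and oligodendrocyte markers shared it in 6 of 7. Of these, Mag (−0.24) and Sox10 (−0.26) were lower with fluoxetine at an unadjusted p below 0.05 in limma, where 3.04% of all probe sets were. The list's summed intensity was 42380 and 42540 on the fluoxetine arrays, against 41910 and 46510 on the untreated arrays.

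Htr3a encodes the subunit that every 5-HT3 channel needs and marks a class of superficial cortical interneurons. It had 1 probe set, 1418268_at, which read 7.87 and 7.79 on the fluoxetine arrays, against 7.999 and 7.45 on the untreated arrays. The untreated arrays lay on either side of the fluoxetine arrays, so the groups overlapped. The difference was 0.11 (SE 0.17, limma, unadjusted p = 0.550). It was −0.17 without untreated replicate 2 and 0.38 (unadjusted p = 0.0126) without untreated replicate 1. Of 10 genes listed as markers of these interneurons, none had an unadjusted p below 0.05. How far each is particular to these cells in tissue punches was not tested. The peptide genes Cck and Npy and the membrane protein gene Lamp5 differed by 0.03, −0.09 and 0.07. Vip, Cck and Lamp5 were, like Htr3a, lowest on untreated replicate 2, while Reln, Calb2, Ndnf and Prox1 were highest there. The list's summed intensity was 29280 and 28810 on the fluoxetine arrays and 28670 and 28740 on the untreated arrays.

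Htr4 and Htr7 encode the Gs-coupled receptors 5-HT4 and 5-HT7. The Htr4 probe sets lay far below the median level: 1443365_at read 4.20 and 4.50 on the fluoxetine arrays, against 4.37 and 4.24 on the untreated arrays. The other, 1427654_a_at, read 4.22 and 3.88 on the fluoxetine arrays, against 4.41 and 4.03 on the untreated arrays. Both overlapped between groups, with differences of 0.05 (SE 0.17) and −0.17 (SE 0.20). Htr7 1435332_at read 6.64 and 6.46 on the fluoxetine arrays, against 6.59 and 6.56 on the untreated arrays, with a difference of −0.02 (95% interval −0.30 to 0.26) that became 0.0185 after subtracting array medians and 0.0033 after another quantile normalization. Htr7 1422235_at read 4.65 and 4.53 on the fluoxetine arrays, against 4.19 and 4.39 on the untreated arrays. These groups did not overlap, and the difference was 0.30 (SE 0.16, limma, unadjusted p = 0.107; 0.0433 without the intensity trend). The probe sets of Htr7 thus did not give the same picture, as for Htr1a, Htr1d, Htr4 and Htr5a. Of the 8 genes with several probe sets, the signs were the same in 3 (Htr1b, Htr1f and Htr2c) and mixed in 5. That count depended on normalization. The values below 0 for Htr1a (−0.03), Htr5a (−0.01) and Htr7 (−0.02) were above it after subtracting array medians (0.0058, 0.0235 and 0.0185). Signs were then the same in these genes too, and mixed only for Htr1d and Htr4.

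Among the remaining serotonin receptor genes on the array, Htr2b, Htr3b, Htr5b and Htr6 each had 1 probe set, and all 4 lay below 7.71. Their groups overlapped in each case, with differences of 0.21 (SE 0.18), 0.0021 (SE 0.15), −0.17 (SE 0.16) and −0.13 (SE 0.25).

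Genes through which the receptors act were read as well, 45 in all, of which 42 had 124 probe sets. In limma 19 of these probe sets, of 15 genes, were higher with fluoxetine at an unadjusted p below 0.05 and 3 were lower, while 0 passed adjustment over all probe sets. Over all probe sets 6.40% were higher and 3.04% lower, and in a fit of the probe sets above the median level alone, where 83 of the 124 lay, 17 of the partner probe sets were higher and 0 lower, beside 9.99% and 1.72% of all. The higher count was 4 without fluoxetine replicate 1, where 2.02% of all probe sets were higher, and 11 without untreated replicate 2, where 6.66% were. With 1 probe set per gene, the one with the highest mean, it was 2 of 42, where 3.45% of all genes were higher. The poly-A controls, 0.24 higher on the fluoxetine arrays, stood beside this count, and their part in it was not tested.

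Of 25 probe sets for the Gi/o route, 5 were higher and 1 was lower at an unadjusted p below 0.05 in limma. Over all probe sets 6.40% were higher and 3.04% lower. Most probe sets of each route lay above the median level, where 9.99% were higher in a fit of these alone. Gnai2, an inhibitory G-protein alpha subunit, read 10.62 and 10.54 on the fluoxetine arrays, against 10.17 and 10.30 on the untreated arrays (difference 0.35, SE 0.07, limma adjusted p = 0.331). Gnai1, its paralog, read 9.90 and 9.61 on the fluoxetine arrays, against 9.20 and 9.29 on the untreated arrays (difference 0.51, SE 0.10). Both were separate between groups, but other probe sets of each gene reached down to 0.01. The brightest probe set of each differed by 0.02 (Gnai1 1454959_s_at) and 0.01 (Gnai2 1435652_a_at). Kcnj9, a subunit of the potassium channels that Gi/o-coupled receptors open, had probe sets in both directions (−0.32 to 0.36 over 4).

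For the Gq route, 5 of 29 probe sets were higher and 0 lower, where 6.40% and 3.04% of all probe sets were. The median difference of the 29 was 0.09. The 5 higher ones belonged to Gnaq, the Gq alpha subunit, Plcb1 and Plcb4, the phospholipases it activates. Gnaq differed by −0.03 to 0.40 over 7 probe sets. For the Gs route, 4 of 36 were higher and 1 lower, beside the same shares of all probe sets. Prkacb, a catalytic subunit of protein kinase A, read 8.70 and 8.48 on the fluoxetine arrays, against 8.04 and 8.27 on the untreated arrays (difference 0.43, SE 0.11). Its 3 probe sets ran from −0.30 to 0.43, with 0.02 for the brightest, 1420611_at. Gnas, the locus of the stimulatory alpha subunit, had 1 dim probe set at 4.84 and 5.05 on the fluoxetine arrays, against 5.58 and 5.33 on the untreated arrays (difference −0.51, SE 0.16). Its 5 probe sets ran from −0.51 to 0.17, and the brightest, 1450186_s_at (mean level 13.96), differed by 0.08.

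Among 34 probe sets for proteins that regulate the receptors, 5 were higher and 1 lower, where 6.40% and 3.04% of all probe sets were. Rgs4, which speeds the shutdown of Gi/o and Gq signals, read 11.26 and 11.12 on the fluoxetine arrays, against 10.79 and 10.91 on the untreated arrays (difference 0.34, SE 0.07). Its 3 probe sets ran from 0.00 for the brightest, 1416286_at, to 0.34. Adarb1, an adenosine deaminase that edits Htr2c RNA, had probe sets in both directions: 1443968_at differed by −0.31 (SE 0.12) and 1421480_a_at by 0.42 (SE 0.11), each with separate groups. Editing itself is not read by these arrays.

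**Figure D5:**
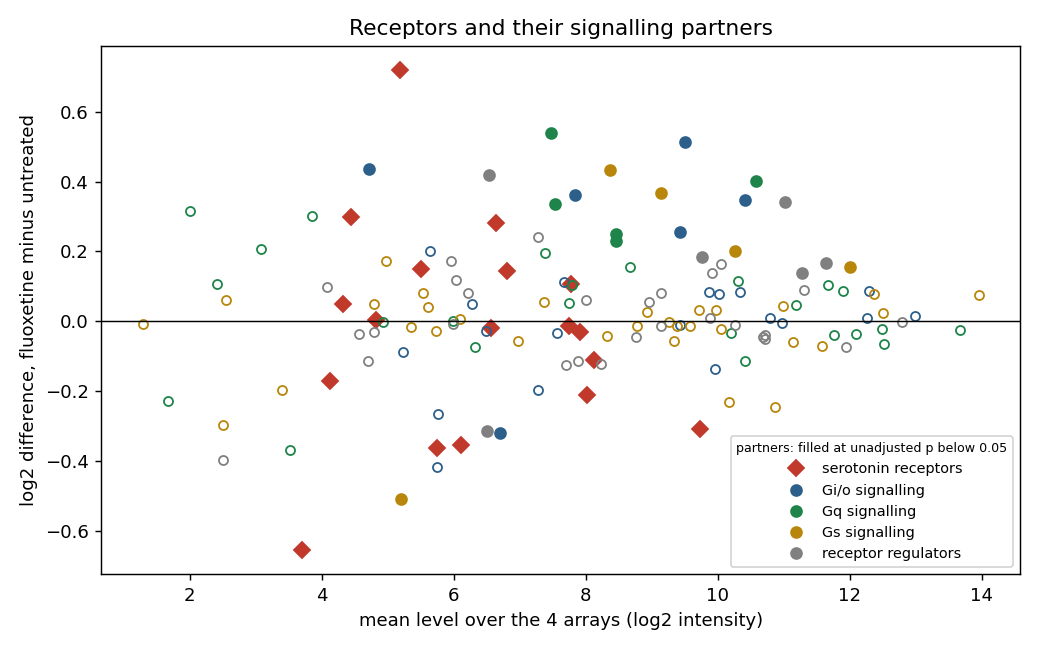
Log2 difference, fluoxetine minus untreated (vertical axis), against mean log2 level over the 4 arrays (horizontal axis) for the 18 receptor probe sets (diamonds) and 124 probe sets of signalling partners and regulators (circles, filled at an unadjusted p below 0.05). Filled circles lie above 0 for 19 partner probe sets and below 0 for 3. Over all tested probe sets 6.40% were higher and 3.04% lower at that threshold.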

How the data were processed

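Transcripts were measured in 2 fluoxetine and 2 untreated arrays. Each deposited column holds the log2 intensities of 1 array, and the submitters' processing notes name RMA, affy and limma, without versions. That the base is 2 was inferred from the range (−0.08 to 15.14), and the lowest lie below those plain RMA usually gives. Of 45101 probe sets, 64 were controls, 932 had several symbols, 9160 had no symbol in the platform annotation and 34945 had 1 symbol and were tested, with no filter on low values. Probe sets with several symbols named no receptor. Groups were compared in R 4.3.3 with limma 3.58.1 (lmFit, eBayes with an intensity trend, two-sided, Benjamini-Hochberg over all tested), with 2 residual and 5.11 prior degrees of freedom. These p-values reflect only array-to-array spread, which may be technical in part, and 2 arrays a group limit the precision. The code was tested on simulated data.

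The genes and lists were chosen with earlier results of these data known. Named were every receptor probe set; partners at an adjusted p below 0.05, or up to 4 per direction with the smallest unadjusted p and separate groups; up to 3 brightest markers of a list; and the 5 probe sets most like the widest-ranging receptor probe set above the median level. Other markers, the 4 remaining receptor genes, and partner probe sets that show a gene's spread were named after their values were seen. Some listed partners are not reported here. Alternatives were another quantile normalization, subtracting array medians, eBayes without the trend or robust, leaving out dim probe sets, 1 probe set per gene (the one with the highest mean), and leaving out each array. Astrocyte, microglial and vascular or meningeal lists, of 6 measured genes each, had median differences of 0.048, −0.076 and 0.114.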

Additional observations from a re-analysis of the deposited data

How the results depend on the processing

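Of 150 recomputed differences of single receptor probe sets, 42 could not change sign, because those alternatives altered only the variance estimate or the set tested. Of the other 108, 81 kept their sign and their side of an unadjusted p of 0.05, 16 changed sign and the rest kept their sign but crossed that threshold. No receptor probe set passed adjustment in limma under any of these alternatives, with the lowest adjusted p between 0.192 and 1. Receptor probe sets higher at an unadjusted p below 0.05 in limma, 1 as reported, were 0 with 1 probe set per gene, where 3.45% of all were. The number was 0 with dim probe sets left out, where 9.99% of all were, and 2 without the intensity trend, where 4.45% were. Those lower, 1 as reported, were 0 after another quantile normalization, where 4.28% of all were, and 0 with dim probe sets left out, where 1.72% were. Without untreated replicate 1, the differences were −0.68 and −0.77 for Htr2c, −0.31 for Htr1b 1442077_at and −0.44 for Htr1d 1422290_at. Receptor probe sets whose fluoxetine arrays both exceeded the untreated pair, 5 as reported, were 1 with 1 probe set per gene and 0 with dim ones left out. Those with both below, 2 as reported, were 1 after subtracting array medians and 1 with dim ones left out; these recounts of arrangements were chosen after seeing the data. Partner probe sets higher, 19 as reported, were 2 with 1 probe set per gene and 4 to 17 with an array left out. Those lower, 3 as reported, were 0 with 1 probe set per gene or dim ones left out, where 3.51% and 1.72% of all were. They were 6 after another quantile normalization, where 4.28% of all were, and 1 after subtracting array medians, where 2.01% were. Fewer probe sets were tested with dim ones left out or 1 per gene, and Htr1f 1440422_at was in neither of these sets. The 1 receptor probe set higher, the 1 lower, the 5 with both arrays above and 1 of the 2 with both below lay below the median level. Leaving out dim ones removed them from the counts. The cause was not tested for changes that did not come from such removal.

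Differences changed sign after subtracting array medians for Htr1a 1438710_at (0.0058), Htr5a 1443276_at (0.0235) and Htr7 1435332_at (0.0185), the last also after another quantile normalization (0.0033). With an array left out, the range crossed 0 for Htr1b 1442077_at (−0.31 to 0.0861), Htr1d 1440741_at (−0.11 to 0.12), Htr2c 1435513_at (−0.68 to 0.06) and 1450477_at (−0.77 to 0.0574), Htr3a (−0.17 to 0.38), Htr4 1427654_a_at (−0.36 to 0.0217) and 1443365_at (−0.10 to 0.20), Htr5a 1443276_at (−0.14 to 0.12) and Htr7 1435332_at (−0.11 to 0.0713). Signal over background limits at least 12 of the 18 receptor probe sets, which lay below the 7.71 that bounded most genes of other organs. The highest probe set for genes of other organs had a mean level of 9.37. Among the receptors, only Htr2c 1435513_at (9.74) lay above it. No paired analysis was possible because the labels give the arrays no numbers shared between groups.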
